A study of Mus musculus with 18 samples.

Results

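The genes described here encode chains of collagens that do not themselves form the banded fibrils of tendon, skin and vessel wall. They are Col6a1, Col6a2 and Col6a3 of collagen VI, Col8a1 and Col8a2 of collagen VIII, Col12a1, Col14a1 and Col16a1 of the fibril-associated collagens, and Col15a1 and Col18a1 of the basement membrane zone. They were picked by symbol from these types only, with earlier results of these data known, and are 10 of the 35655 genes in the count table. All 10 passed the filter on low counts and were among the 10312 genes tested, but Col8a1, Col8a2 and Col12a1 passed it through the libraries taken after injury, since their day 0 counts were at most 14, so the counts of members below are a description.

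RNA was read from laser-dissected carotid arteries of WT C57/BL6 mice by MACE, a method that counts the 3′ ends of transcripts. There were 4 libraries of day 0, labelled pre-injury, and 4, 3, 4 and 3 libraries of days 7, 14, 21 and 28 after wire injury. In this model a wire drawn through the artery strips its lining and stretches its wall, after which a new inner layer, the neointima, grows. All groups shared genotype and strain, and the labels name no drug or diet. Per the study's methods, the injury was made on the left carotid of male mice at 11 weeks of age, the right carotid was the control, and thrombosed vessels were removed. The pieces cut out held the wall from the outer elastic lamina inwards, neointima included, from up to 70 sections per sample, and a legend of the study calls the samples pooled. A library may therefore hold tissue of more than a single animal, and p-values measure the spread between these libraries only. The labels give 3 mouse numbers to a day 0 and also to a day 21 library, and no source used here says whether day 0 vessels were the untouched right carotids of injured mice.

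Collagen VI is built from chains that assemble inside the cell into tetramers and then, outside it, into beaded filaments that tie cells and basement membranes to the surrounding matrix. Collagen VIII is a short-chain collagen made by vascular smooth muscle and endothelial cells, and it forms hexagonal networks. Collagens XII, XIV and XVI sit on the surface of fibrils made by collagens I to III and link them to other matrix. Collagens XV and XVIII are proteoglycans that sit between basement membranes and the matrix around them, and fragments of their ends, endostatin from collagen XVIII among them, act on blood vessel growth.

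The promoters of 3 members that were higher after injury are shown because these genes, 2 of which encode chains of a single collagen, differ in the letters that precede them. They come from RefSeq promoter windows of GRCm38.p6, each of which matched GRCm39 exactly and in 1 place only. They run 5′ to 3′ on the gene's strand, and only bases before the gene's annotated start are printed. Capitals mark GGGCGG, a GC box, on either strand, where it reads CCGCCC on the other strand, and neighbouring boxes may overlap. Col8a1 lies at chr16:57575101-57575350 on the minus strand, Col8a2 at chr4:126180337-126180558 on the plus strand and Col6a3 at chr1:90771781-90771943 on the minus strand.
Col8a1: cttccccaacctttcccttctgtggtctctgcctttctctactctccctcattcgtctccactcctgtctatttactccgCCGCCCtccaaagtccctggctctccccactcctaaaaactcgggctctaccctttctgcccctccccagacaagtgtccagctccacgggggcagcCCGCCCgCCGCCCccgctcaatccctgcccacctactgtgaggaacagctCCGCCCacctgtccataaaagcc
Col8a2: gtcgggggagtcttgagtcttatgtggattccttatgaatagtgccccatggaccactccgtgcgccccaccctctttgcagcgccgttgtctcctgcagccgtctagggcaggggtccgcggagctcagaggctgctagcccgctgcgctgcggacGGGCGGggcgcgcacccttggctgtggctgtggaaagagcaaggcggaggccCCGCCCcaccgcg
Col6a3: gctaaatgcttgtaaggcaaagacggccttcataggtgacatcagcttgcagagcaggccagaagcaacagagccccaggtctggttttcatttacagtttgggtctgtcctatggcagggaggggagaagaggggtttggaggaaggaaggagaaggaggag

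In the whole window of 250 bases before the RefSeq start, Col8a1 and Col8a2 each held 4 GC boxes and Col6a3 held 0, while 32.7% of 32851 such windows held at least 1. The Col8a2 window runs past the gene's annotated start, so only part of its boxes are printed. Col16a1 and each window of Col6a2 also had a box, and Col6a1 and Col15a1 had 0. Col18a1 had 3 in the window at chr10:77002365-77002614 and 0 in that at chr10:76949540-76949789. The letters TATAAA were in no window of the 8 members found in the table, against 12.4% of all windows. The letters TGAGTCA, read on both strands, were in the window of Col6a1 only, against 4.46% of all windows. Col12a1 and Col14a1 had no entry. Such matches describe letters and show no binding.

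Smooth muscle markers, those of the labelled tissue, were read in every library, and a few libraries stood apart from the others of their day. Day 14 replicate 2, which had the highest day 14 value of Col6a1, Col6a2, Col6a3, Col8a1, Col8a2, Col12a1 and Col16a1, also held 266 CPM of skeletal muscle markers, while the other libraries of that day held 1.60 and 1.30. This replicate was the lowest of day 14 for Col14a1 and Col18a1. Day 21 replicate 1, the highest of day 21 for Col6a1, Col6a2, Col6a3, Col8a2 and Col16a1 and the lowest for Col14a1 and Col15a1, held 265 CPM of skeletal muscle markers beside 2.33 to 8.22 in the others. Day 14 replicate 1 held 23501 CPM of smooth muscle markers against 7528 and 8430.0 in the others. It was the lowest of day 14 for Col8a1, Col8a2, Col12a1, Col6a2, Col6a3 and Col16a1 and the highest for Col15a1 and Col18a1. Day 7 replicate 4 held 7071 CPM of smooth muscle markers against 1526 to 3495 in the others of that day. Its adventitial fibroblast markers stood at 1048 CPM against 534 to 595. It was the highest of day 7 for Col6a2, Col8a1, Col15a1 and Col18a1 and the lowest for Col6a1, Col8a2 and Col12a1. The part of these libraries in the members' values was not tested.

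Among the 10 genes, 3 were higher and 4 lower than day 0 on day 7, 5 were higher on day 14, 4 on day 21 and 1 on day 28, by edgeR's quasi-likelihood test at an adjusted p under 0.05 over all genes tested. Over all genes tested, 11.3% were called higher and 8.53% lower on day 7, 4.8% higher and 1.42% lower on day 14, 5.92% higher and 2.93% lower on day 21, and 0.97% higher and 0.369% lower on day 28. On days 14, 21 and 28 edgeR called 0 members lower, as did DESeq2 and limma voom. At an unadjusted p under 0.05 edgeR counted 0 lower on days 14 and 21 and 1, Col15a1, on day 28. It counted 6, 7 and 2 higher on days 14, 21 and 28 at that threshold. In bulk tissue fewer cells of a type and less RNA per cell cannot be told apart, for the lower Col6a2, Col14a1, Col15a1 and Col18a1 of day 7 as for the higher Col6a3, Col8a1 and Col12a1. Without day 14 replicate 2 the 5 calls of day 14 were 2. The median log2 fold change of the members was 0.07 on day 7, equal to the 0.07 of all genes tested, and then 1.09 on day 14, 0.89 on day 21 and 0.31 on day 28, where all genes stood at 0.05, 0.07 and -0.01. The mean level was highest on day 14 for 7 members, on day 21 for Col6a1 and Col14a1, and on day 28 for Col18a1. Without day 14 replicate 2, a choice made after seeing the data, it was highest on day 14 for 4 members and on day 21 for 5, with Col6a2, Col8a1, Col8a2 and Col12a1 moved to day 21 and Col14a1 to day 14.

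**Figure D1:**
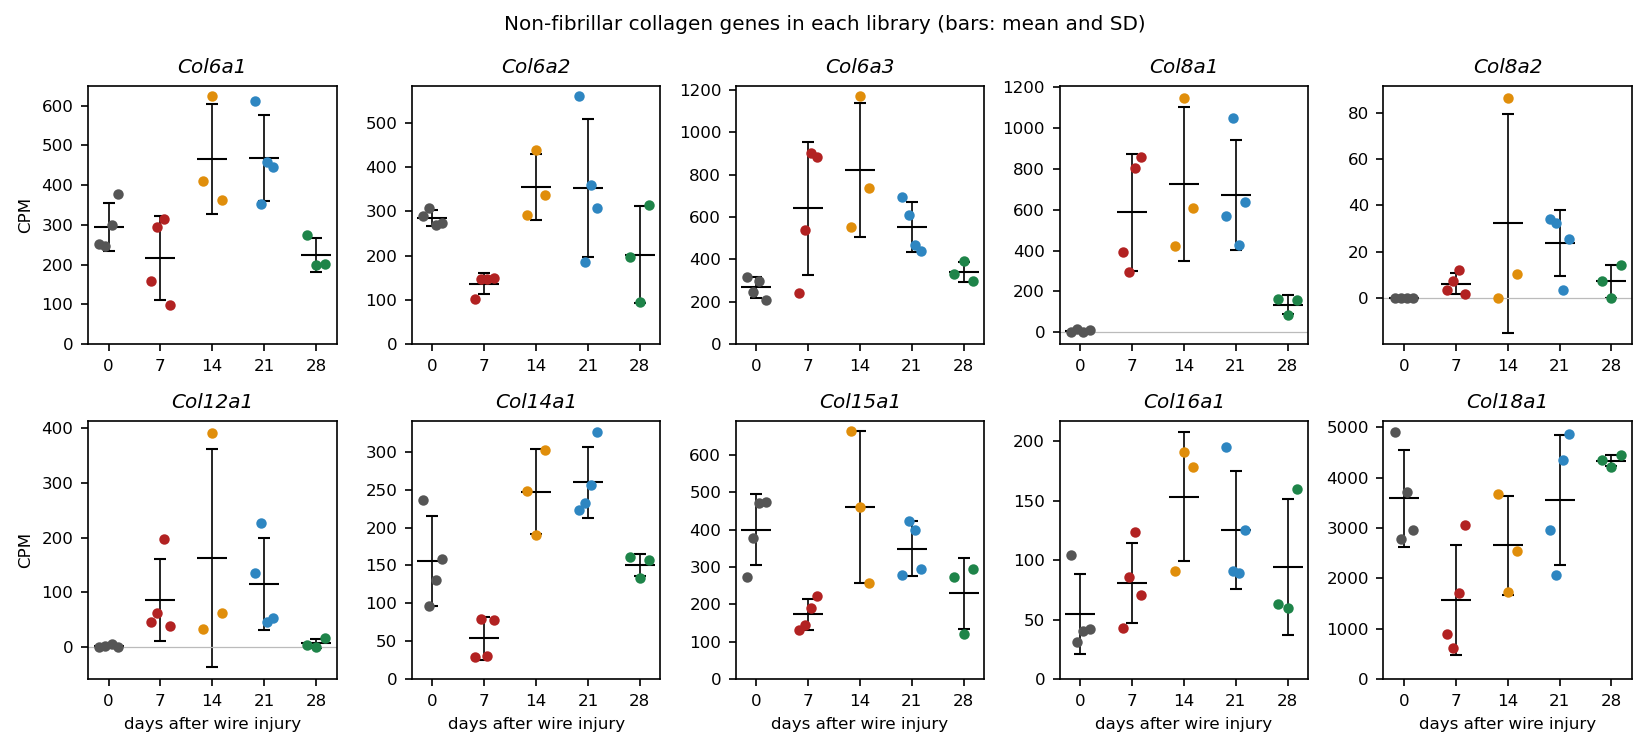
Counts scaled to a common library total (CPM, y axis, a separate linear scale for each gene) of the 10 genes in each of 18 libraries by day after wire injury (x axis), with the mean and SD of each day. Points are libraries. Col8a1, Col8a2 and Col12a1 sat at or near 0 on day 0, while Col14a1 and Col15a1 had their lowest mean on day 7.

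The genes of collagen VIII were read at or near 0 before injury and in nearly every library after it. Col8a1 encodes the alpha 1 chain, lies on GRCm39 chromosome 16 from 57444621 to 57575100, and was read at 0, 16.7, 1.49 and 9.19 CPM in the day 0 libraries, where CPM are counts scaled to a common library total. On day 7 it was read at 392, 295, 805 and 860.5 CPM. On day 14 it was read at 421, 1149 and 611 CPM. Every library of both days was above every day 0 library. On day 21 the values were 570.1, 1051, 428 and 638 CPM. On day 28 they were 164, 82.7 and 159.8 CPM, below all libraries of days 7, 14 and 21 and above all of day 0.

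On the log2 scale Col8a1 stood above day 0 by 6.30 (standard error, SE, 0.58, adjusted p = 9e-08) at day 7, 6.60 (0.60, 2.2e-07) at day 14, 6.49 (0.59, 2.1e-07) at day 21 and 4.18 (0.59, 0.000457) at day 28, by edgeR. Among the 10312 genes tested, Col8a1 ranked 8, 2, 2 and 4 by p on these days. Days 14 and 21 did not differ from day 7 beyond their spread, with differences of 0.30 (95% interval -0.63 to 1.23) and 0.19 (-0.68 to 1.06) on the log2 scale. The size rests on low day 0 counts, and without day 0 replicate 2, which alone held 14 counts, the log2 fold changes were 7.21, 7.52, 7.41 and 5.10. On day 28 the call was lost with limma voom and the mouse number as a block (adjusted p = 0.0502).

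Col8a2, the alpha 2 chain, lying at 126180559 to 126208123 of chromosome 4, was not counted in the 4 day 0 libraries, which allows up to 3 counts in each. A floor of this kind covers counting error only. It was read at 3.56, 7.19, 12 and 1.61 CPM on day 7 and at 0, 86.5 and 10.4 CPM on day 14. On day 21 it was read at 34.3, 32.3, 3.29 and 25.6 CPM, and on day 28 at 7.18, 0 and 14.4 CPM. All libraries of days 7 and 21 were thus read above 0, while a library each of days 14 and 28 was at 0. Day 7 replicates 1 and 4 and day 21 replicate 3 held only 1 or 2 counts. These do not exceed the 3 counts allowed in each day 0 library. Taken against 3 counts in each day 0 library, the mean was at least 7.85-fold higher on day 14 (adjusted p = 0.00933 by edgeR) and at least 5.80-fold higher on day 21 (adjusted p = 0.0112). Day 14 rests on replicate 2, without which the bound was 1.27-fold and the adjusted p 0.205, and limma voom gave 0.134. The bounds of at least 1.48-fold on day 7 (adjusted p = 0.0511) and 1.75-fold on day 28 (adjusted p = 0.156) were not called by edgeR. Day 7 was called by DESeq2 (adjusted p = 0.0179), without the filter on low counts (0.00629) and in 5 of 18 fits that left out 1 library, those without day 7 replicate 4, day 14 replicate 1 or 2, day 21 replicate 3 or day 28 replicate 2. Day 28 was called without the filter (0.0219).

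The 3 genes of collagen VI were called on different days. Whether they differ from each other is tested by their ratios. Col6a3, which encodes the largest chain, was higher than day 0 on days 7, 14 and 21. Col6a2 was lower on day 7, and Col6a1 did not pass the test against day 0 on any day. Col6a1 (chromosome 10, 76543440 to 76562283) and Col6a2 (chromosome 10, 76429660 to 76459549) lie on the minus strand 83.9 kb apart with no protein-coding gene between them, and Col6a3 lies on chromosome 1 from 90693645 to 90771780.

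Col6a3 was read at 319, 249, 298 and 210.0 CPM on day 0, and at 244, 537, 901 and 885 CPM on day 7. It was read at 553, 1170.0 and 737 CPM on day 14, and at 693, 607, 470.3 and 439.8 CPM on day 21. On day 28 the values were 332, 394 and 297 CPM. Replicate 1 of day 7 lay among the day 0 libraries, all libraries of days 14 and 21 lay above them, and day 28 overlapped them. The log2 fold changes of days 7, 14 and 21 were 1.26 (SE 0.31, adjusted p = 0.00475), 1.61 (0.33, 0.00322) and 1.04 (0.31, 0.0348), and the difference of day 28 was 0.34 (0.33, 0.682). The call of day 14 was lost without day 14 replicate 2 (adjusted p = 0.0573). That of day 21 was lost with the replicate number as a block (adjusted p = 0.0503) and when day 0 replicate 2, 3 or 4 or day 21 replicate 1 or 2 was left out (adjusted p up to 0.113).

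Col6a2 was read at 290.3, 307, 268 and 274 CPM on day 0, and at 101, 147, 148 and 150.1 CPM on day 7, with no overlap. Its log2 fold change on day 7 was -1.06 (SE 0.31, adjusted p = 0.0170), and without day 7 replicate 1 the adjusted p was 0.0516. On day 14 it was read at 291, 438 and 337 CPM, on day 21 at 559, 186, 360.1 and 307 CPM, and on day 28 at 197, 95.9 and 315 CPM. All libraries of days 14 and 21 lay above day 7, by 1.38 (SE 0.33, adjusted p = 0.0293) and 1.37 (0.32, 0.00704) on the log2 scale. The call of day 14 was lost when any 1 library of that day, or day 7 replicate 1, 2 or 3, was left out (adjusted p up to 0.105), and that of day 21 without day 21 replicate 1 (0.0503).

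Col6a1 was read at 252, 246, 299.6 and 377 CPM on day 0 and at 158, 295, 315 and 98.5 CPM on day 7. Readings were 411, 623 and 363 CPM on day 14, then 613, 353, 459 and 447 CPM on day 21, and finally 274, 198 and 201 CPM on day 28. The days after injury overlapped day 0, and the log2 difference on day 7 was -0.44 (95% interval -1.05 to 0.17, adjusted p = 0.354). Day 14 stood above day 0 by 0.66 (0.02 to 1.31, adjusted p = 0.273) and day 21 by 0.67 (0.07 to 1.28, 0.170). These intervals lay above 0, but neither day passed the adjusted threshold. The difference of day 28 was -0.38 (-1.05 to 0.28, adjusted p = 0.618). Every day 21 library was above every day 7 library, by 1.12 on the log2 scale (SE 0.30, adjusted p = 0.0208). That call was lost without day 7 replicate 1 (adjusted p = 0.0724) or day 21 replicate 1 (0.0858).

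Whether related chains shifted against each other was tested within libraries, as the log2 ratio of 2 members, for 5 pairs on 4 days. The ratio of Col6a3 over Col6a1 averaged -0.12 ± 0.50 (SD, n = 4) before injury and 1.53 ± 1.13 (SD, n = 4) at day 7, with libraries from -0.83 to 0.34 and from 0.61 to 3.13, so the days did not overlap. The difference of 1.65 had a p of 0.0286 in the exact two-sided permutation test, the smallest that groups of this size allow, and 0.0816 after adjustment over the 20 tests. After adjustment that smallest p passes only where most of the 20 tests reach it. Failure to pass therefore does not show that related chains kept their ratio. Of those 20 tests, 0 passed the adjusted threshold and 7 had an unadjusted p under 0.05. The other 6 were Col8a1 over Col8a2 and Col12a1 over Col14a1 on days 7, 14 and 21, whose day 0 ratios rest on a gene at or near 0. Col6a2 over Col6a1 differed from day 0 by -0.50 on day 7, with an adjusted p of 0.408 in the exact permutation test.

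**Figure D2:**
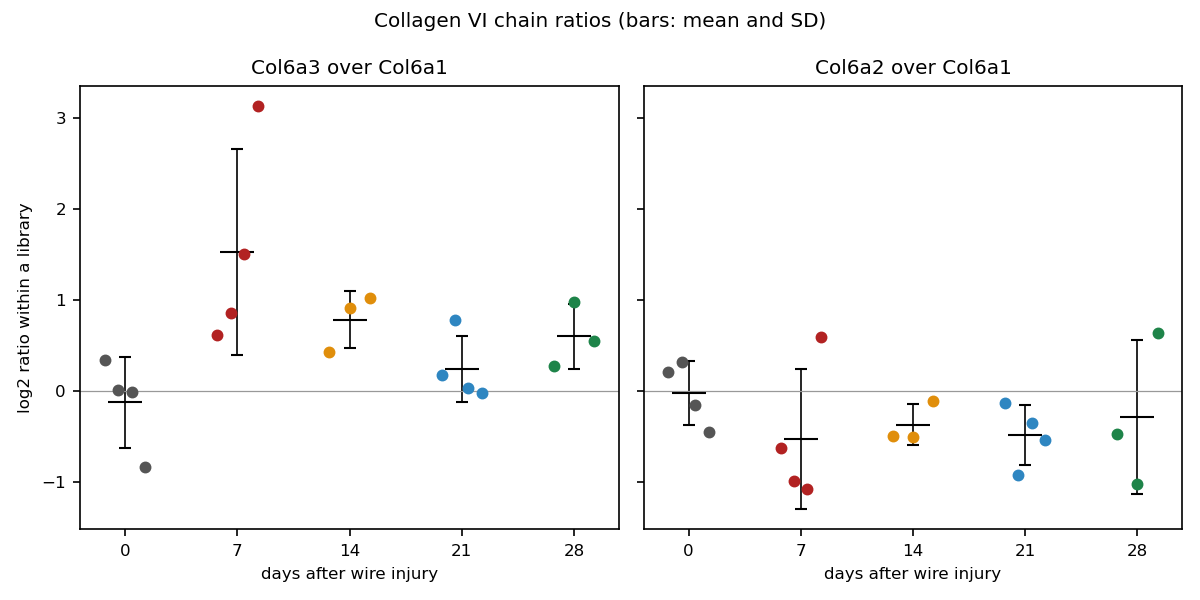
Log2 ratio within a library (y axis) of Col6a3 over Col6a1 (left) and Col6a2 over Col6a1 (right) by day after wire injury (x axis), with the mean and SD of each day and points for libraries. The day 7 libraries of the left panel, 0.61 to 3.13, lay above the day 0 libraries, -0.83 to 0.34, and those of the right panel overlapped day 0.

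Of the collagens on fibril surfaces, Col12a1 and Col14a1 moved in opposite directions on day 7. Col12a1, whose product binds collagen I fibrils and tenascin, lies on chromosome 9 from 79506268 to 79626135. It was read at 0, 1.20, 5.96 and 0 CPM on day 0 and at 46.3, 62.9, 197 and 38.7 CPM on day 7. On day 14 the values were 33.6, 392 and 61.3 CPM, on day 21 they were 135, 226, 46.0 and 53.5 CPM, and on day 28 they were 4.31, 0 and 16 CPM. All libraries of days 7, 14 and 21 lay above day 0 and above day 28, and day 28 overlapped day 0.

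The log2 fold changes of Col12a1 against day 0 were 5.49 (SE 1.02, adjusted p = 0.00033) on day 7, 6.40 (1.03, 0.000272) on day 14, 5.92 (1.01, 0.000502) on day 21, while day 28 stood at 1.86 (95% interval -0.93 to 4.66, adjusted p = 0.551). The day 0 level rests on 5 counts, 4 of them in replicate 3, without which the folds of days 7, 14 and 21 were 7.08, 7.99 and 7.51 on the log2 scale. Without day 7 replicate 3 the day 7 fold was 4.66 (adjusted p = 0.00194), and without day 14 replicate 2 that of day 14 was 4.64 (adjusted p = 0.00671).

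Col14a1, the undulin gene on chromosome 15 from 55171140 to 55384199, was read at 237, 96.8, 131 and 159 CPM on day 0. On day 7 all libraries were lower, at 28.5, 79.1, 29.9 and 77.5 CPM. Values of 248, 191 and 303 CPM on day 14 and 224, 232, 257 and 326 CPM on day 21 lay above all of day 7, as did 161, 134 and 157 CPM on day 28. The log2 fold change was -1.52 (SE 0.33, adjusted p = 0.0015) on day 7 against day 0. The later days stood above day 7 by 2.19 (0.35, 0.00154), 2.26 (0.33, 0.000133) and 1.47 (0.35, 0.00545) in turn. Against day 0 the later days differed by 0.67, 0.73 and -0.05, none past the threshold (adjusted p 0.304, 0.150 and 0.973). With voom and the mouse number, which days 0 and 21 share in 3 pairs, as a block, the difference of day 21 was called (0.81, adjusted p = 0.0400).

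Col16a1, whose product sits at fibrillin microfibrils and small fibrils, lies on chromosome 4 from 129941154 to 129993076. Libraries gave 104, 31.1, 40.2 and 42.0 CPM on day 0 and 42.7, 86.3, 124 and 71.0 CPM on day 7. Day 14 gave 91.2, 191 and 179 CPM, day 21 gave 195, 90.8, 88.8 and 126 CPM, and day 28 gave 63.2, 59.5 and 159.8 CPM. Replicate 1 of day 0 overlapped every later day. The log2 fold change of 1.5 on day 14 (SE 0.44, adjusted p = 0.0389) was lost with the replicate number as a block (0.0778) and in 7 of the 18 fits that left out 1 library, up to 0.213 without day 14 replicate 2. It was also lost without day 0 replicate 2, 3 or 4, day 7 replicate 2, day 14 replicate 3 or day 21 replicate 4. On day 21 the difference was 1.22 (adjusted p = 0.0677), which was called under 6 alternatives. These were limma voom (0.0348), voom with the mouse number as a block (0.0240), no filter (0.00892), only the libraries of both days (0.0498), and the fits without day 0 replicate 1 (0.0134) or day 28 replicate 3 (0.0463).

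The genes of the basement membrane zone collagens were both lower on day 7. Col15a1, on chromosome 4 from 47207582 to 47313179, was read at 274, 378, 471 and 475 CPM on day 0 and at 132, 146, 191 and 223 CPM on day 7, with no overlap. Values were 664, 461 and 257 CPM on day 14, then 278, 424, 399.6 and 296 CPM on day 21, and finally 273, 121 and 294 CPM on day 28. Its log2 fold change was -1.21 on day 7 (SE 0.30, adjusted p = 0.00541). Against day 7 it was 1.41 on day 14 (0.32, 0.0221) and 1.01 on day 21 (0.30, 0.0415). The first was lost with only the libraries of days 7 and 14 in the fit (adjusted p = 0.0614). It was also lost without day 7 replicate 1 or 2 or day 14 replicate 1 (up to 0.254). The second was lost in 6 of 18 such fits, those without day 0 replicate 2, day 7 replicate 1, 2 or 3 or day 21 replicate 2 or 3 (up to 0.121), and with the replicate number as a block (0.0550).

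Col18a1, the endostatin gene on chromosome 10 from 76888012 to 77002390, was read at 4906, 2772, 3705 and 2961 CPM on day 0. On day 7 the values were 899, 624, 1710.4 and 3049.6 CPM, and replicate 4 lay within the range of day 0. On day 14 they were 3684, 1733 and 2546 CPM, on day 21 they were 2951, 2061, 4358 and 4863 CPM, and on day 28 they were 4342, 4217 and 4442 CPM. Day 28 lay above all of day 7 and varied little, with a mean of 4334 ± 113 (SD, n = 3). The log2 fold change was -1.19 on day 7 (SE 0.35, adjusted p = 0.0178), lost without day 0 replicate 1 or day 7 replicate 1 or 2 (up to 0.0681), and 1.46 on day 28 against day 7 (0.38, 0.0100). The rise of 1.18 from day 7 to day 21 (0.35, 0.0416) was lost in 7 of 18 fits that left out 1 library, those without day 0 replicate 3, day 7 replicate 1, 2 or 3 or day 21 replicate 1, 3 or 4 (up to 0.140). With only the libraries of days 7 and 21 in the fit, that rise was lost as well (0.0682). Reads of 3′ ends do not separate the Col18a1 transcripts that start at different promoters. The end of Col18a1 overlaps exons of Slc19a1 on the other strand, and use of strand in the counting is not stated. Slc19a1 was read at a mean of 0.598 to 10.6 CPM on days 0 to 21 and at 0 on day 28. The part of this overlap in the Col18a1 counts was not tested. Exons of Col8a1, Col8a2, Col12a1, Col14a1, Col15a1 and Col16a1 also overlap other genes on the opposite strand, though not at the 3′ end.

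**Figure D3:**
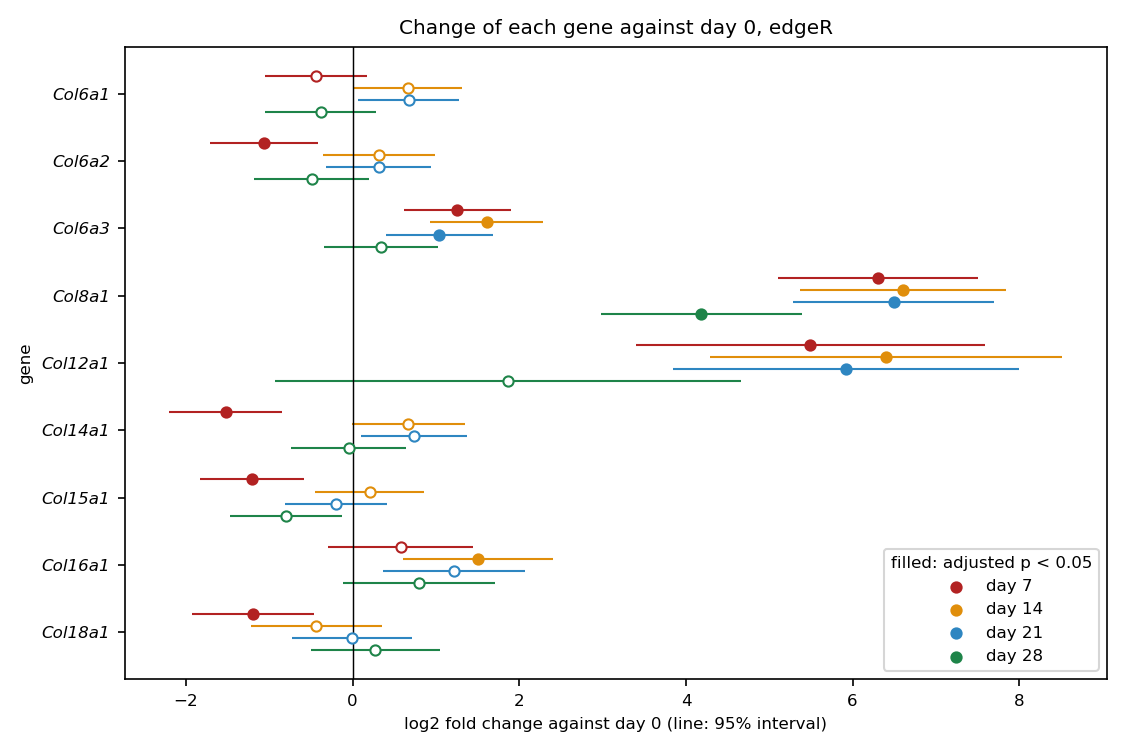
Log2 fold change against day 0 (x axis) of each gene (y axis) on days 7, 14, 21 and 28, as fitted by edgeR, with 95% intervals as lines and filled points for an adjusted p under 0.05. Col8a2 is not drawn because it had no count on day 0. Col8a1 and Col12a1 stood at 5.49 to 6.60 on days 7, 14 and 21, and Col14a1, Col15a1, Col6a2 and Col18a1 stood at -1.52 to -1.06 on day 7.

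Compared with day 7, 3 members were higher on day 14 by edgeR, namely Col6a2, Col14a1 and Col15a1, and 5 on day 21, which were these with Col6a1 and Col18a1. On day 14 DESeq2 and limma voom each called 4. Col6a1 on day 14, at 1.10 and an adjusted p of 0.0815 by edgeR, was called by DESeq2 (0.0177), limma voom (0.0326), voom with the mouse number as a block (0.0331), without the filter (0.00854) and without day 7 replicate 3 (0.0474). Of all genes tested, 1.33% were called higher and 0.33% lower on day 14, and 4.03% higher and 3.23% lower on day 21. edgeR, DESeq2 and limma voom called 0 members lower on either day, and 0 had an unadjusted p under 0.05 in that direction. The 3 calls of day 14 were 1 without day 7 replicate 1 or 2 or day 14 replicate 1, and the 5 of day 21 were 2 without day 7 replicate 1 or day 21 replicate 1 and 3 without day 7 replicate 2 or 3 or day 21 replicate 3. On day 28 Col14a1 and Col18a1 were higher than on day 7 and Col8a1 and Col12a1 lower, 2 in each direction, against 6.4% and 8.05% of all genes. All contrasts with day 7 share its 4 libraries.

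The last step, from day 21 to day 28, was called downward for Col8a1 and Col12a1. Col8a1 was lower by a log2 fold change of -2.31 (SE 0.50, adjusted p = 0.0270) and Col12a1 by -4.05 (0.96, 0.0464), so 2 of 10 members were called lower and 0 higher, against 0.572% and 0.107% of all genes tested. DESeq2 and limma voom also called 0 higher. At an unadjusted p under 0.05 edgeR counted 0 members higher and 6 lower. Both calls were unstable. That of Col12a1 was lost in 10 of the 18 fits that left out 1 library, those without day 0 replicate 2 or 4, day 7 replicate 1 or 2, day 21 replicate 1, 2 or 4 or any day 28 library (up to 0.172), and with limma voom (0.142). That of Col8a1 was lost with the replicate number as a block (0.0591) and without day 21 replicate 2 or 4 or day 28 replicate 2 or 3 (up to 0.155). Without any 1 of those 4 libraries the count was 0. The day 28 libraries of Col6a1, Col6a3, Col8a1, Col12a1 and Col14a1 were all below those of day 21, 5 of 10 members, and no member was wholly above, against 8.3% and 5.44% of all genes tested. Against day 7, Col8a1 stood at -2.12 on the log2 scale (SE 0.49, adjusted p = 0.00497) and Col12a1 at -3.63 (0.96, 0.0118), the latter lost without day 7 replicate 3 (-2.80, adjusted p = 0.0559) or day 28 replicate 2 (0.0597) and with limma voom (0.0889). Col12a1 rests here on 13 counts in the 3 day 28 libraries, and without day 28 replicate 3, which held 10 of them, the folds were -5.09 against day 7 and -5.55 against day 21.

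Across the 18 libraries the log2 levels of the 45 pairs of members had Pearson correlations from -0.48 to 0.84 with a median of 0.40, given as a description, since the libraries of a pair share day and depth. The highest was Col8a1 with Col12a1 at 0.84, and 0.42 once the mean of each day was taken out. Col8a2 with Col12a1 stood at 0.80, and 0.85 within days, and day 14 replicate 2 was the highest library for both. The lowest was Col12a1 with Col18a1 at -0.48. The neighbours Col6a1 and Col6a2 stood at 0.70, and 0.33 within days.

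The tested gene most like each member over the 18 libraries was Col5a1 for Col6a3 (r = 0.91), Fmod for Col6a1 (0.82), Thbs3 for Col6a2 (0.80), Mpeg1 for Col8a1 (0.94) and Myo7a for both Col8a2 (0.86) and Col12a1 (0.94). It was Cst3 for Col14a1 (0.90), Mfap5 for Col15a1 (0.89), Nrep for Col16a1 (0.78) and Mfge8 for Col18a1 (0.90). Col5a1 encodes a fibrillar collagen chain, Fmod the fibril-binding proteoglycan fibromodulin, Mpeg1 a pore-forming protein of macrophages and Mfap5 a microfibril protein. These values share depth and day and carry no test.

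Other collagens and their partners give the setting. Among fibrillar collagens, the chains that build the fibrils themselves, 8 of 10 tested were higher than day 0 on days 7 and 14 and 7 on day 21, with Col1a1 at log2 1.45, 2.19 and 2.84 and Col3a1 at 0.63, 1.64 and 1.71. From day 21 to day 28, 4 of the 10 were lower, with Col1a1 at log2 -2.61 and Col3a1 at -1.45. The fibrillar median was 1.02, 1.79 and 2.25 on days 7, 14 and 21, beside 0.07, 1.09 and 0.89 for the members. Of 23 further non-fibrillar collagen genes 8 were tested, mostly the basement membrane chains of collagen IV. Col4a6 was lower on day 7 (log2 -2.44, adjusted p = 0.000654), and 5 of the 8, Col4a1, Col4a2, Col4a4, Col4a5 and Col4a6, were higher on day 21 than on day 7. Col10a1, the hypertrophic cartilage collagen, was at 0 in all day 0 libraries, at 7.83 to 148 CPM on day 14 (adjusted p = 0.00518) and at 11.5 to 80.7 CPM on day 21 (0.00635).

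Collagen receptors were called in both directions. Of 12 collagen receptor genes tested, 4 were higher and 4 lower on day 7, 4 and 1 on day 14, 3 and 2 on day 21, and 1 and 1 on day 28. Itga1, a subunit of a collagen-binding integrin, was lower on all 4 days, from log2 -1.82 (adjusted p = 3.1e-05) on day 7 to -1.35 (0.0220) on day 28, and Cspg4, which encodes the collagen VI receptor NG2, was lower on day 7 (-1.71, 0.000259). Mrc2, the endocytic collagen receptor, was higher on days 7, 14 and 21 (1.43, 2.17 and 2.41). Itga11, a fibroblast integrin subunit, was at 0 in every library of days 0 and 28 and at 11.3, 36.2 and 49.1 CPM on average on days 7, 14 and 21.

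Of 12 binding partners of the members, 6 were higher on each of days 7, 14 and 21 and 2 on day 28. Tnc, which encodes tenascin C, was higher on all 4 days (log2 4.11, 3.92, 3.50 and 2.41), as was Lum, the proteoglycan lumican (2.24, 3.72, 3.95 and 2.23). Fn1, fibronectin, was higher on days 7, 14 and 21 (1.52, 2.00 and 1.70), and Bgn, biglycan, was lower on day 7 (-0.96, adjusted p = 0.00649). Of 15 genes of collagen folding and modification, 1 was higher on days 7 and 14 and 3 on day 21. P4ha3, a prolyl hydroxylase subunit, was called on each of these days, while Serpinh1, the collagen chaperone, stood at 0.40, 0.47 and 0.44 (adjusted p 0.276, 0.375 and 0.288) on the same days.

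Of 15 genes of proteases and inhibitors that act on these collagens, 8 were higher and 2 lower on day 7, 8 and 1 on day 14, and 8 on day 21. Ctss, which encodes the elastin- and collagen-cleaving cathepsin S (6.25, 5.64 and 4.76), Mmp2, a gelatinase (1.20, 2.28 and 2.20), and the inhibitor Timp1 (4.66, 3.6 and 2.36) were higher on all 3 days. Timp3, the matrix-bound inhibitor, was lower on day 7 (-1.69, adjusted p = 0.00024). Of the 15, 7 were lower on day 28 than on day 7.

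Markers of cell types moved with the same days. All 7 smooth muscle markers tested were lower on day 7, and the summed level of the whole list of 8 went from 32510.3 to 37494 CPM on day 0 to 1526 to 7071 on day 7, and from 20210.2 to 28509 on day 28. All 8 macrophage markers were higher on days 7, 14 and 21, from 76.5 to 473 CPM on day 0, with Mpeg1 at 0, to 3752 to 5567 on day 7, and at 658 to 949 on day 28 when 2 of 8 were called. Of 7 adventitial fibroblast markers 5 were lower on day 7 (534 to 1048 CPM, 2115 to 3061 on day 0), and of 7 endothelial markers 4 were higher and 1 lower (686 to 2221 CPM, 628 to 1131 on day 0). The 5 proliferation markers were all higher on day 7, at 226 to 393 CPM against 3.59 to 56.6, and 3 of 4 red blood cell markers were higher, at 164 to 2328 against 40.2 to 369. The part of these cells in the members' values was not tested. Adipocyte markers were at 0 to 9.59 CPM and T cell markers at 0 to 30.3 in all libraries. Markers of Schwann cells were at 3.94 to 17.9 CPM on day 0 and at 11.5 to 202 on day 21.

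**Figure D4:**
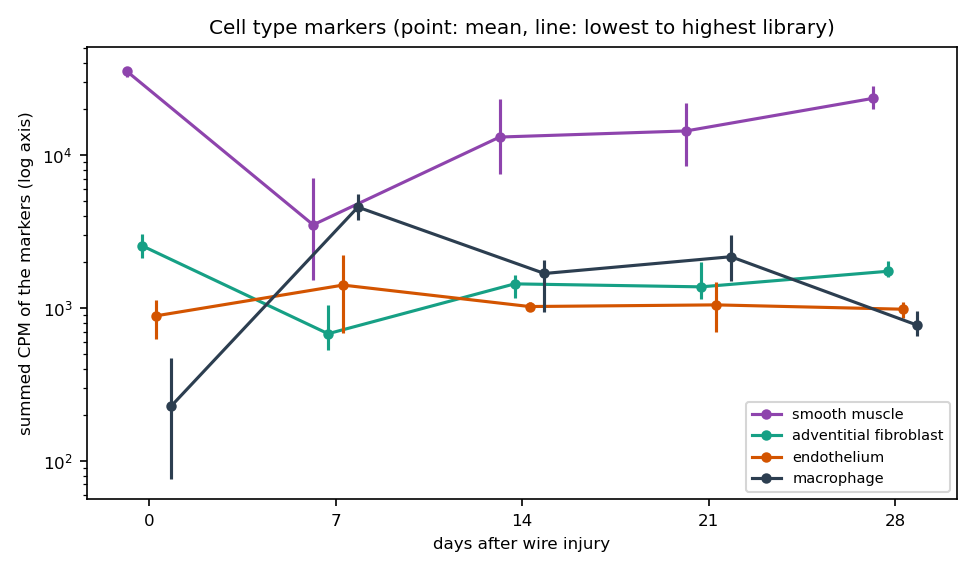
Summed CPM of 4 lists of cell type markers (y axis, log scale) by day after wire injury (x axis), with the mean as a point and the lowest to highest library as a line. Smooth muscle markers stood at 1526 to 7071 CPM on day 7, when macrophage markers reached 3752 to 5567 CPM.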

How the data were processed

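MACE libraries of 18 samples were used. Per the study's methods, the authors used molecular identifiers to drop PCR copies, then trimmed reads and ran Salmon 1.9.0 on the mm39 transcriptome. The table used here holds the estimated counts per gene that the authors deposited as whole numbers without normalisation (expected counts). The second deposited table, of normalised values, was not used here, and the annotation release and use of strand are not given in the sources used here. Totals were 440675 to 878310 counts (median 659166). A count carries only counting precision at low values, so members near 0 on day 0 have wide intervals.

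The fit used edgeR 4.0.16 in R 4.3.3 (filterByExpr by day, TMM, quasi-likelihood test) in 1 fit with day as the only term, and p-values were adjusted by Benjamini-Hochberg over 10312 genes at a threshold of 0.05. CPM are scaled to the normalised library total, and the biological coefficient of variation came to 0.449. Ratios and correlations used log2 CPM with a prior count of 2, and ratios were tested by exact two-sided permutation over libraries. A day whose libraries each held 3 counts or fewer was set to 3 counts per library, which gives a lower bound of the fold. Apart from ratios within a library, which were tested between days, and correlations, counts of 3′ ends of different genes were not compared. Positions are from GENCODE on GRCm39. The steps were tested on simulated data. Groups are the days on the labels. Equal replicate numbers were not treated as a pairing in the main fit. Residuals of such libraries correlated at -0.13 to 0.20 (median -0.01, 33 pairs), and those with the same mouse number at -0.01 to 0.06 (3 pairs). Some pairs share both numbers. With so few pairs of the same mouse number, these values cannot show whether libraries were paired.

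The members and all lists were chosen with earlier results of these data known. The rule for named genes was all members, called genes of the lists (by default the 3 with the smallest p), and the tested genes with the highest correlation to each member, of which 1 is given. Which called genes are named was chosen with their values seen, and Serpinh1 falls outside the rule. Alternatives were DESeq2 1.42.0, limma 3.58.1 voom without and with the mouse number as a block, RLE scaling, no filter on low counts, only the libraries of the 2 days, the replicate number as a block, a prior count of 0.5 for ratios, and each library left out in turn.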

Additional observations from a re-analysis of the deposited data

Results flagged for a closer look

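In 3 of 29 groups of 4 libraries, a library lay farther from the rest than Dixon's test allows at the 95% level, which chance does in about 1 of 20 groups. The lowest day 7 value of Col6a2, 101 CPM in replicate 1, lay apart from the others at 147 to 150.1 CPM. The highest day 7 value of Col12a1, 197 CPM in replicate 3, stood above the others at 38.7 to 62.9 CPM. The highest day 0 value of Col16a1, 104 CPM in replicate 1, stood above the others at 31.1 to 42.0 CPM.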

How the results depend on the processing

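Of 1991 values of the members under the alternatives, 1867 kept direction and side of the threshold, 72 lost a call, 24 gained a call and 28 changed sign, 0 of which had been called. Of 400 ratio values 5 changed sign, and their side of the threshold says nothing about stability: 0 passed, and the smallest p that these group sizes allow, 0.0286, passes after adjustment over 20 tests only where most tests reach it. The number of members changed on day 28 against day 0 was 1, and 0 with voom and the mouse block and 2 with no filter. For day 28 against day 21 it was 2, and 1 with voom, 1 with the mouse block and 1 with the replicate block, which also ended the calls of Col6a3 on day 21 and Col16a1 on day 14 against day 0, Col8a1 on day 28 against day 21 and Col15a1 on day 21 against day 7. It changed no other call of a member. With 1 library left out, the counts were 2 to 5 for day 14 against day 0, 1 to 4 for day 14 and 2 to 5 for day 21 against day 7, and 0 to 2 for day 28 against day 21. The cause was not tested. RLE scaling moved the scale of no day by over 0.03 on the log2 scale. Col8a2 has no value under some alternatives because it did not pass the filter or got no adjusted p.

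Values without a call changed sign as follows. Col8a2 on day 28 against day 7 was -0.27 with voom and -0.27 with the mouse block. Col14a1 on day 28 against day 0 was 0.038 with voom, 0.041 with the mouse block and 0.061 with the replicate block. Col18a1 on day 21 against day 0 was 3e-04 with no filter. With 1 library left out, ranges against day 0 were -0.0011 to 0.50 for Col6a2 and -0.22 to 0.18 for Col18a1 on day 21, -0.15 to 0.48 for Col15a1 on day 14 and -0.22 to 0.23 for Col14a1 on day 28. Against day 7 they were -0.18 to 0.61 for Col8a1, -0.12 to 3.00 for Col8a2 and -0.82 to 1.73 for Col12a1 on day 14. On day 21 they were -0.46 to 0.0063 for Col6a3, -0.084 to 0.45 for Col8a1 and -0.075 to 1.24 for Col12a1. On day 28 they were -0.18 to 0.33 for Col6a1, -0.65 to 0.83 for Col8a2 and -0.37 to 0.53 for Col16a1. The ratio of Col6a2 over Col6a1 on day 28 ranged from -0.73 to 0.10, and that of Col15a1 over Col18a1 from -0.11 to 0.50 on day 7 and from -0.47 to 0.12 on day 21.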
